A study of Mus musculus with 12 samples.

Results

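Interferon-induced genes are the genes that cells switch on when an interferon reaches them, and 40 of them, listed by name, are described here across 12 mouse livers. All 40 were found among the 41325 genes of the tables, and all 40 were among the 16456 genes with enough reads to be tested. They fall into 7 groups by role: 7 genes of the OAS family, 4 of the IFIT family, 3 of the ISG15 system, 4 sensors of nucleic acids, 4 transcription factors, 11 other antiviral effectors and 7 GTPases. The livers came from C57BL/6J mice of WT genotype, with 4 libraries in each of 3 groups. Mice of the CDDO-Me group had NASH (nonalcoholic steatohepatitis, a fatty liver disease with inflammation and scarring), labelled as treated with CDAHFD (a choline-deficient, amino acid-defined high-fat diet), and were given CDDO-Me by mouth at 10 mg/kg for 8 weeks. NASH vehicle mice had the same disease label and received vehicle, and control mice were labelled as control and received vehicle. CDDO-Me, or bardoxolone methyl, is a synthetic triterpenoid that activates the transcription factor NRF2. Age, sex and the diet of the control mice are not stated in the labels, and nothing there says whether a library was made from 1 animal, so every p-value measures the spread between these libraries.

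Type I interferons are secreted by infected or stimulated cells and bind a receptor that most cells carry. Its kinases activate STAT proteins, among them STAT2, which joins IRF9 in a complex that binds the interferon-stimulated response element (ISRE) near the start of its target genes. Interferon gamma, made by T and NK cells, acts through a different element, called GAS, and is the main inducer of the GTPases that attack vacuoles holding bacteria and parasites. In the liver both hepatocytes and macrophages respond to interferons, and some of the induced proteins block virus replication while others, such as USP18, damp the signal.

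The bases before the start sites were searched for the core letters of the ISRE, and a few stretches that hold them are shown to let them be seen. RefSeq promoters of build GRCm38.p6 were given for 30 of the 40 members, and the 250 bases before each start site were searched on both strands. The ISRE core (GAAA, any 2 bases, GAAA) or its complement (TTTC, any 2 bases, TTTC) was present in 16 of these 30 genes (53.3%), and in 936 of all 27025 genes with a promoter (3.46%). By promoter, that was 16 of 35 (45.7%) for the members and 978 of 32851 (2.98%) over all. Matches overlapped each other in 6 of the 16 genes. The GAS core TTCNNNGAA was in 6 of the 30 genes (20%) and 8.13% of all genes, and 1 GAS match, in Bst2, overlapped an ISRE match. The core of the antioxidant response element, to which NRF2 binds (TGACNNNGC or its complement GCNNNGTCA), was in 5 of the 30 (16.7%) and 11.5% of all. Capitals mark the ISRE core in the stretches below, each read 5′ to 3′ on the strand of its gene.
Isg15, chr4:156200855-156200916, minus strand: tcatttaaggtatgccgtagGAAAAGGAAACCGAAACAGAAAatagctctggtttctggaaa
Oas1a, chr5:120907526-120907565, minus strand: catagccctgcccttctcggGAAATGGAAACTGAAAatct
Oas3, chr5:120777705-120777754, minus strand: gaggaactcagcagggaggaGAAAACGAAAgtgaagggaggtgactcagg
Ifit1, chr19:34640765-34640833, plus strand: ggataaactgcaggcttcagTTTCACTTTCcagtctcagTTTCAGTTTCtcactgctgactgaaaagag
Ifit3, chr19:34583353-34583436, plus strand: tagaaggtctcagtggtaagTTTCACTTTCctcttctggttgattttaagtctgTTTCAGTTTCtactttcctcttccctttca
Stat2, chr10:128270256-128270305, plus strand: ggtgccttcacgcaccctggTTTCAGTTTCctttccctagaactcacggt
Bst2, chr8:71537567-71537622, minus strand: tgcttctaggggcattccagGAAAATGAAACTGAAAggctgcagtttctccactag
Igtp, chr11:58199502-58199551, plus strand: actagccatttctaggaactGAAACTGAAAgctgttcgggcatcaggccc

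Isg15 held 3 overlapping cores, the most of any member, 57 to 78 bases before its start site. Oas1a and Oas1g shared the same 38 bases, with their cores ending 5 and 3 bases before the start, and the 84 bases shown for Ifit3 were identical in Ifit3b. Of the 6 GTPases with a promoter 5 held an ISRE core, as did 3 of 5 OAS genes, 3 of 4 IFIT genes, 1 of 4 transcription factors and 0 of 2 nucleic acid sensors. A match is a description of these letters only.

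Libraries held 28161057 to 33852338 gene reads. Levels are given as CPM (reads of a gene scaled to a library of common size) after scaling with trimmed means (TMM), whose factors were 0.97 to 1.20 in CDDO-Me, 1.11 to 1.31 in NASH vehicle and 0.73 to 0.83 in control libraries. Changes are log2 fold changes from edgeR's quasi-likelihood fit, with an SE worked back from its F statistic. A gene was called where the Benjamini-Hochberg adjusted p over all 16456 genes was under 0.05. All 10 hepatocyte markers were detected, and they summed to 38100 to 115466 CPM per library. Some libraries stood apart. Control 3 had 449 CPM of 6 smooth muscle genes, where the other control livers held 14.8 to 20.9 CPM, and CDDO-Me 4 had 166 CPM, against 26.0 to 60.3 CPM in the other CDDO-Me libraries. Within their own groups, CDDO-Me 1 was the highest library for 34 of the 40 members, NASH vehicle 1 for 32 and control 1 for 15. With all 12 libraries, 29 members were called lower in CDDO-Me against NASH vehicle livers and 33 higher in NASH vehicle against control livers. Without control 3 and CDDO-Me 4 these counts were 31 and 32. Without NASH vehicle 1 and CDDO-Me 1, a fit chosen after the data were seen, they were 26 and 31. Over all tested genes the same counts were 1191 and 4874 with all 12 libraries. They were 2004 and 5255 without control 3 and CDDO-Me 4, and 1091 and 4661 without NASH vehicle 1 and CDDO-Me 1.

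CDDO-Me livers were compared with NASH vehicle livers to ask how the compound changed the diseased liver. Of the 40 members, 29 were lower in CDDO-Me livers, 0 were higher and 11 did not pass, where 7.24% of all tested genes were called lower and 9.39% higher. The log2 fold change was below 0 for 39 of the 40, with a median of -0.87, against -0.01 over all tested genes. Every CDDO-Me library lay below every NASH vehicle library for 28 members, where the same held for 10.2% of all tested genes. The exception in sign was Iigp1, at 0.19 ± 0.15. No member was higher at an unadjusted p under 0.05 either, and DESeq2, limma-voom and limma-trend called 0 higher with all libraries. Of the 29 calls, 20 held without any 1 library, and the other 9 are named with their groups. Ranges of adjusted p over all alternatives include the run with a 1.5-fold minimum. That run tested for a change beyond 1.5-fold and not for any change, so its adjusted p is high where a change is small.

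NASH vehicle livers were compared with control livers to ask what the disease changed. Of the 40 members, 33 were higher in NASH vehicle livers, 1 was lower and 6 did not pass, where 29.6% of all tested genes were called higher and 30.0% lower. The median log2 fold change was 1.25, against -0.01 over all tested genes. In 31 members every NASH vehicle library lay above every control library, where 27.0% of tested genes did so. Both comparisons use the same 4 NASH vehicle libraries, so a library that is high there pushes them in opposite directions. CDDO-Me and control livers are therefore also set side by side further on.

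**Figure D1:**
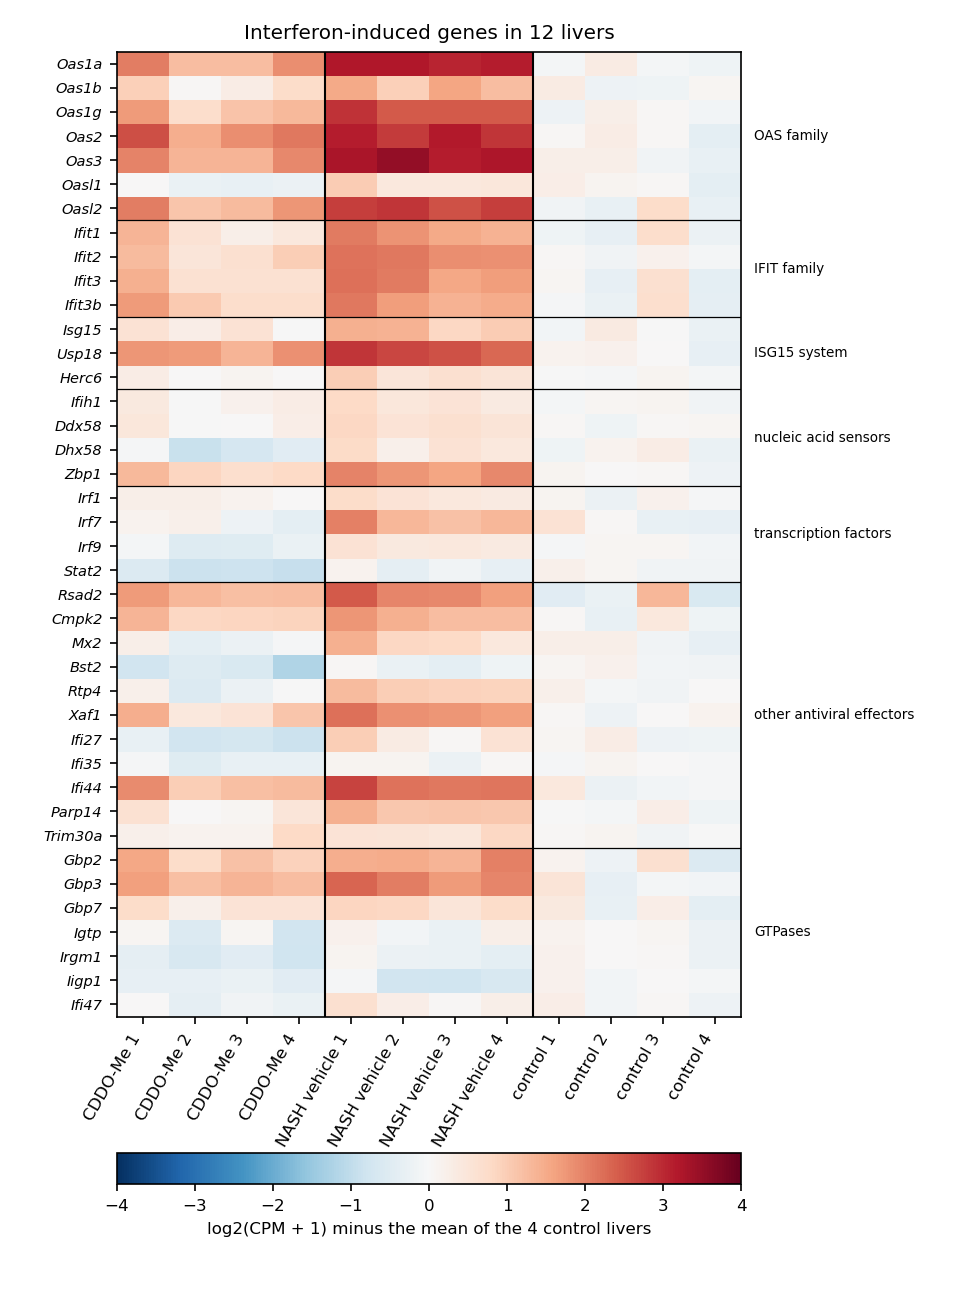
Level of each of the 40 members in each of the 12 libraries, as log2(CPM + 1) minus the mean of the 4 control livers, with members in rows by role and CDDO-Me, NASH vehicle and control libraries in columns. The NASH vehicle columns are on average reddest in the rows of Oas3, Oas1a and Oas2, while Oas1b and Oasl1 are paler. Usp18 and Ifi44 are on average redder there than the IFIT rows. In most OAS and IFIT rows the CDDO-Me columns lie between the NASH vehicle and control columns.

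Active enzymes of the OAS family make oligoadenylates that switch on RNase L, an enzyme that cuts viral and cellular RNA. All 7 members were higher in NASH vehicle than in control livers (median of the log2 fold changes 3.42). All 7 were lower in CDDO-Me than in NASH vehicle livers, where the median was -1.20. Oas1a (chr5:120896256-120907521) had 12.6, 6.77, 6.82 and 11.1 CPM in CDDO-Me livers, 29.3, 29.7, 26.2 and 28.3 CPM in NASH vehicle livers and 2.15, 3.14, 2.11 and 1.97 CPM in control livers. The 3 groups did not overlap. It was 3.03-fold lower with CDDO-Me than with vehicle (log2 fold change -1.60 ± 0.20, edgeR adjusted p = 0.000142), and 12.1-fold higher in NASH vehicle than in control livers (3.60 ± 0.22, adjusted p = 5.41e-08). Oas3 (chr5:120753098-120777661) had 5.19, 3.02, 2.99 and 4.99 CPM in CDDO-Me livers, 13.9, 16.9, 12.8 and 13.7 CPM in NASH vehicle livers and 0.845, 0.8302, 0.407 and 0.268 CPM in control livers. It had the largest change of all members in both comparisons, -1.82 ± 0.27 with CDDO-Me (adjusted p = 0.000592) and 4.60 ± 0.32 in NASH vehicle against control livers (adjusted p = 1.40e-07). Its control level rests on 57 reads in 4 libraries, so the size of that rise is less certain than its direction.

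Oas2 had 12.9, 5.300, 7.48 and 9.003 CPM in CDDO-Me livers, 19.3, 15.03, 20.2 and 16.01 CPM in NASH vehicle livers and 1.42, 1.84, 1.41 and 0.7602 CPM in control livers. CDDO-Me 1, the highest of its group, stayed below the lowest NASH vehicle library, and the log2 fold changes were -1.02 ± 0.25 with CDDO-Me (adjusted p = 0.01496) and 3.69 ± 0.29 in NASH vehicle against control. Oas1g, a close copy of Oas1a with 85.1% of its reads placed uniquely, had 5.61, 2.32, 3.43 and 3.99 CPM in CDDO-Me livers, 14.1, 10.2, 10.2 and 10.2 CPM in NASH vehicle livers and 0.768, 1.38, 1.11 and 0.894 CPM in control livers. Its groups were separate, with -1.53 ± 0.25 for CDDO-Me against NASH vehicle (adjusted p = 0.00118) and 3.42 ± 0.28 for NASH vehicle against control. Reads of Oas1a were 84.2% unique, so the split of reads between these copies is uncertain. Oas1b, which the annotation of the tables lists as a polymorphic pseudogene, had 3.96, 1.61, 2.15 and 3.297 CPM in CDDO-Me livers, 6.29, 3.902, 6.68 and 5.04 CPM in NASH vehicle livers and 2.19, 1.199, 1.26 and 1.699 CPM in control livers. CDDO-Me 1 reached above the lowest NASH vehicle library, and the change with CDDO-Me was -0.98 ± 0.30 (adjusted p = 0.0373). That call ended when any 1 of 5 libraries was left out (NASH vehicle 1, 3 or 4, CDDO-Me 2 or 3), at adjusted p of 0.0707 to 0.114, with 0.00663 to 0.479 over all alternatives. The call of Oas2 ended without CDDO-Me 3 (adjusted p = 0.0541, 0.000711 to 0.294 over all alternatives).

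Oasl1 and Oasl2 are OAS-like proteins that carry ubiquitin-like domains, and in the mouse OASL1 is known to hold back translation of Irf7. Oasl2 had 19.5, 9.72, 11.02 and 15.8 CPM in CDDO-Me livers, 32.9, 35.2, 28.3 and 33.1 CPM in NASH vehicle livers and 3.495, 3.04, 7.33 and 3.09 CPM in control livers. All CDDO-Me libraries lay between the other groups, with -1.20 ± 0.27 against NASH vehicle (adjusted p = 0.0109) and 1.72 ± 0.29 against control (adjusted p = 0.000405). Oasl1 had 11.7, 9.44, 9.27 and 9.63 CPM in CDDO-Me livers, 24.3, 15.9, 15.9 and 16.3 CPM in NASH vehicle livers and 13.9, 12.5, 11.9 and 8.496 CPM in control livers. It changed least of the family, by -0.85 ± 0.17 with CDDO-Me (adjusted p = 0.00464) and 0.63 ± 0.17 in NASH vehicle against control (adjusted p = 0.00616), and its CDDO-Me and control values overlapped.

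IFIT proteins bind foreign RNA and keep it from being translated. All 4 IFIT genes, which lie side by side on chromosome 19, were higher in NASH vehicle than in control livers (median log2 fold change 2.03), and 3 of them were lower in CDDO-Me than in NASH vehicle livers (median of the 4, -1.09). Ifit2 (chr19:34550694-34576419) had 7.45, 3.896, 4.49 and 5.96 CPM in CDDO-Me livers, 14.8, 14.2, 11.8 and 11.3 CPM in NASH vehicle livers and 2.61, 2.17, 2.96 and 2.28 CPM in control livers. Its groups were separate, and it changed by -1.25 ± 0.20 with CDDO-Me (adjusted p = 0.000952) and by 2.37 ± 0.21 in NASH vehicle against control (adjusted p = 8.16e-07). Ifit3 had 22.8, 12.8, 12.7 and 12.8 CPM in CDDO-Me livers, 40.5, 36.6, 25.1 and 27.5 CPM in NASH vehicle livers and 8.41, 6.18, 12.99 and 5.903 CPM in control livers. The CDDO-Me libraries other than the first were nearly equal and just below control 3, and the change against NASH vehicle was -1.08 ± 0.27 (adjusted p = 0.0187). Ifit1 had 11.9, 6.67, 5.03 and 5.76 CPM in CDDO-Me livers, 20.3, 16.9, 13.7 and 12.2 CPM in NASH vehicle livers and 3.53, 3.09, 7.36 and 3.35 CPM in control livers. CDDO-Me 1 came close to the lowest NASH vehicle library without reaching it (-1.10 ± 0.32, adjusted p = 0.0334). The call of Ifit1 ended without any 1 of 6 libraries, NASH vehicle 1, 2 or 3 or CDDO-Me 2, 3 or 4 (adjusted p = 0.0577 to 0.104, 0.00388 to 0.363 over all alternatives). That of Ifit3 ended without NASH vehicle 2 or CDDO-Me 2 or 3 (0.0513 to 0.0663, 0.000626 to 0.275 over all alternatives). Ifit3b, which shares reads with Ifit3 (81.1% and 80.2% unique), averaged 4.61 ± 2.03 CPM in CDDO-Me livers, 7.498 ± 2.01 CPM in NASH vehicle livers and 1.73 ± 0.969 CPM in control livers (SD, n = 4 each). Its change of -0.70 ± 0.35 with CDDO-Me did not pass (adjusted p = 0.199).

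ISG15 is a small ubiquitin-like protein that is attached to other proteins, HERC6 is the ligase that attaches it in the mouse, and USP18 removes it and blocks the type I interferon receptor. All 3 genes were higher in NASH vehicle than in control livers and lower in CDDO-Me than in NASH vehicle livers. Isg15 (chr4:156199424-156200818) had 8.46, 6.598, 8.43 and 5.33 CPM in CDDO-Me livers, 15.9, 15.6, 10.4 and 11.98 CPM in NASH vehicle livers and 4.95, 7.24, 5.25 and 4.34 CPM in control livers. CDDO-Me values overlapped control values and stayed below all NASH vehicle values (-0.90 ± 0.20, adjusted p = 0.00861), and NASH vehicle exceeded control by 1.31 ± 0.20. Usp18 (chr6:121245906-121270917) had 18.8, 18.2, 14.2 and 19.7 CPM in CDDO-Me livers, 41.6, 36.5, 33.7 and 27.9 CPM in NASH vehicle livers and 5.53, 5.63, 4.92 and 3.71 CPM in control livers. Its 3 groups stood clear of each other, at -0.98 ± 0.15 for CDDO-Me against NASH vehicle (adjusted p = 0.000751), 2.82 ± 0.16 for NASH vehicle against control (adjusted p = 3.25e-08) and 1.84 ± 0.16 for CDDO-Me against control. Herc6 had 13.7, 10.9, 11.8 and 11.1 CPM in CDDO-Me livers, 22.7, 15.7, 17.6 and 16.2 CPM in NASH vehicle livers and 10.9, 10.6, 11.95 and 10.3 CPM in control livers. It was lower with CDDO-Me (-0.60 ± 0.13, adjusted p = 0.00595) and its CDDO-Me values overlapped control (0.12 ± 0.13, adjusted p = 0.469). Of the reads of Usp18 and Herc6, 66.3% and 68.5% were unique, and on unique reads alone both stayed lower with CDDO-Me (-1.08, adjusted p = 0.000459 for Usp18, and -0.63, adjusted p = 0.00884 for Herc6).

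**Figure D2:**
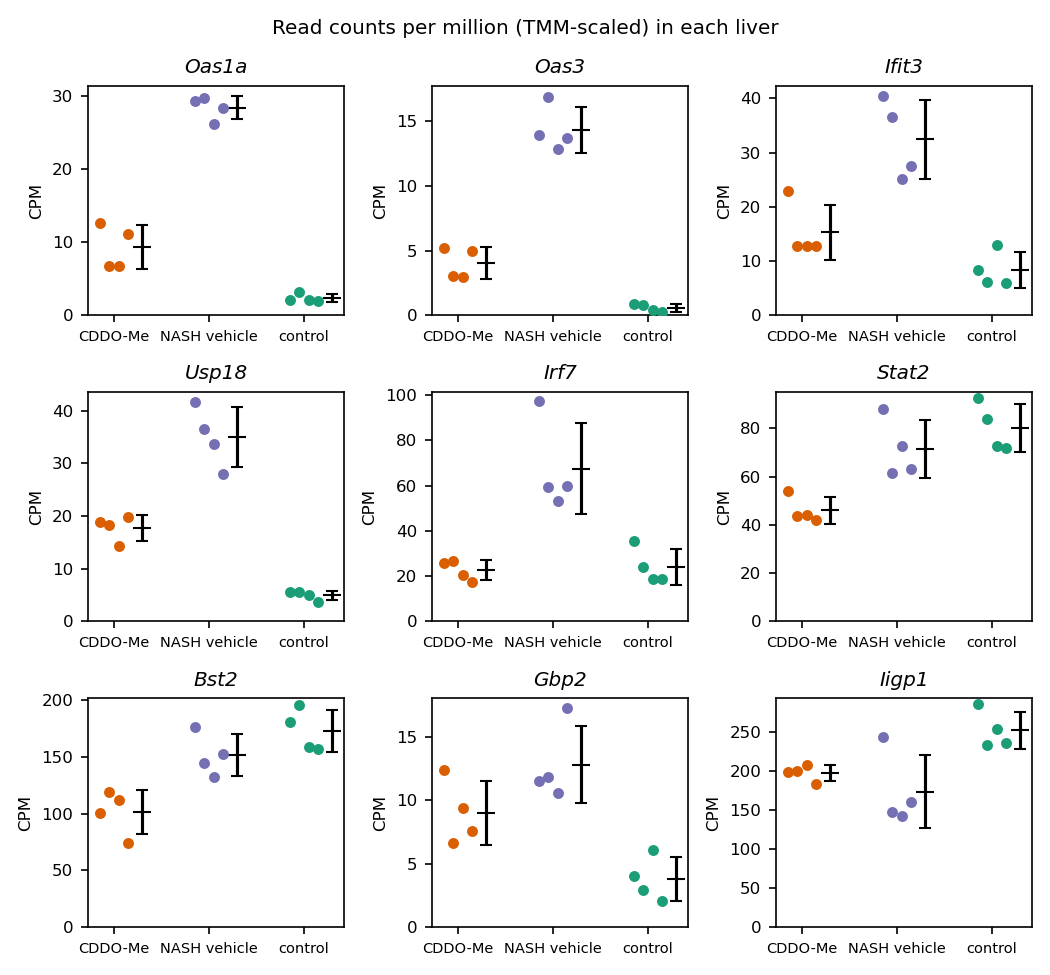
CPM in each of the 12 libraries for 9 members, with points for livers and the mean and SD of each group of 4 beside them. Oas1a, Oas3 and Usp18 show separate groups with CDDO-Me in the middle, and CDDO-Me values of Irf7 overlap control values.

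The nucleic acid sensors detect viral RNA or DNA in the cell and start interferon production. All 4 were higher in NASH vehicle than in control livers (median log2 fold change 0.61) and 3 were lower in CDDO-Me than in NASH vehicle livers (median of the 4, -0.72). Zbp1, which recognises left-handed nucleic acids and can trigger necroptosis, had 9.89, 7.05, 5.98 and 6.68 CPM in CDDO-Me livers, 16.7, 14.04, 12.2 and 15.9 CPM in NASH vehicle livers and 3.803, 3.51, 3.59 and 2.86 CPM in control livers. No 2 groups overlapped, at -0.99 ± 0.17 with CDDO-Me (adjusted p = 0.00147) and 2.10 ± 0.18 in NASH vehicle against control (adjusted p = 5.74e-07). Dhx58, which encodes the regulator LGP2, had 11.7, 6.07, 7.26 and 8.43 CPM in CDDO-Me livers, 21.4, 14.1, 18.3 and 16.5 CPM in NASH vehicle livers and 10.6, 13.4, 14.9 and 9.79 CPM in control livers. CDDO-Me values lay below all NASH vehicle values (-1.07 ± 0.20, adjusted p = 0.00311), while NASH vehicle and control values overlapped (0.52 ± 0.20, adjusted p = 0.0357). This rise over control ended without any 1 of 5 libraries (control 1 or 4, NASH vehicle 1, 3 or 4), at adjusted p of 0.0505 to 0.105, and on unique reads (76.9% of its reads) at 0.0812, with 0.000813 to 0.673 over all alternatives. Dhx58 also overlaps an antisense gene, and the strand of the reads is not stated.

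Ddx58, the gene of the RNA sensor RIG-I, had 31.5, 22.1, 23.1 and 27.4 CPM in CDDO-Me livers, 40.9, 33.6, 35.5 and 32.5 CPM in NASH vehicle livers and 23.4, 20.1, 23.5 and 23.8 CPM in control livers. The highest CDDO-Me library was just under the lowest NASH vehicle library (-0.45 ± 0.12, adjusted p = 0.0182), and the call ended without CDDO-Me 2 or 3 (adjusted p = 0.0637 to 0.0663, 0.00176 to 1 over all alternatives). Ifih1, the gene of the RNA sensor MDA5, had 32.4, 24.3, 27.9 and 30.3 CPM in CDDO-Me livers, 42.8, 33.9, 36.2 and 31.8 CPM in NASH vehicle livers and 23.01, 26.01, 26.6 and 22.1 CPM in control livers. CDDO-Me 1 exceeded NASH vehicle 4, and the change of -0.33 ± 0.11 did not pass (adjusted p = 0.0579).

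Transcription factors carry the signal to the target genes: STAT2 and IRF9 are parts of the ISRE-binding complex, IRF7 drives the interferon alpha genes, and IRF1 acts mainly after interferon gamma. All 4 were lower in CDDO-Me than in NASH vehicle livers, with no overlap for any of them, and 3 were higher in NASH vehicle than in control livers. Irf7 (chr7:141262706-141266481) had 26.01, 26.8, 20.4 and 17.5 CPM in CDDO-Me livers, 97.3, 59.5, 53.4 and 59.6 CPM in NASH vehicle livers and 35.5, 23.9, 18.8 and 18.6 CPM in control livers. It fell 2.97-fold with CDDO-Me (-1.57 ± 0.25, adjusted p = 0.00131), rose 2.79-fold in NASH vehicle against control (1.48 ± 0.25, adjusted p = 0.000268), and CDDO-Me and control values overlapped. Irf9 had 29.7, 21.6, 21.8 and 25.8 CPM in CDDO-Me livers, 46.3, 41.00, 42.2 and 40.5 CPM in NASH vehicle livers and 30.00, 32.9, 32.9 and 28.6 CPM in control livers. NASH vehicle stood above both other groups, by 0.45 ± 0.10 over control (adjusted p = 0.00192), and CDDO-Me differed from it by -0.78 ± 0.10 (adjusted p = 0.000267). Stat2 (chr10:128270559-128292849) had 54.05, 43.8, 44.03 and 41.9 CPM in CDDO-Me livers, 87.8, 61.4, 72.5 and 63.3 CPM in NASH vehicle livers and 92.4, 83.9, 72.5 and 71.8 CPM in control livers. CDDO-Me libraries were the lowest (-0.63 ± 0.13 against NASH vehicle, adjusted p = 0.00484), while NASH vehicle and control overlapped (-0.17 ± 0.13, adjusted p = 0.265), and this sign turned with library totals alone (0.46), on exon reads (0.08) and on the TPM scale (0.83). Irf1 had 35.1, 35.2, 33.4 and 30.3 CPM in CDDO-Me livers, 50.8, 44.6, 40.9 and 39.1 CPM in NASH vehicle livers and 32.4, 25.3, 33.8 and 29.2 CPM in control livers. Its change was small (-0.39 ± 0.11 with CDDO-Me, adjusted p = 0.0235) and ended without NASH vehicle 1 or 2 or CDDO-Me 3 (0.0574 to 0.06397, 0.00369 to 1 over all alternatives).

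Among the other antiviral effectors, 9 of 11 were higher in NASH vehicle than in control livers and 7 were lower in CDDO-Me than in NASH vehicle livers. Bst2 encodes tetherin, which holds budding virus particles at the cell surface. It was the most abundant member per length: its level was 290.5 ± 32.4 TPM (a level scaled by transcript length and library size) in CDDO-Me livers, 509 ± 36.1 TPM in NASH vehicle livers and 329 ± 22.8 TPM in control livers (mean ± SD, n = 4 each). On the CPM scale Bst2 had 101, 119, 112 and 74.4 in CDDO-Me livers, 176, 144, 132 and 153 in NASH vehicle livers and 180.5, 195, 158 and 157 in control livers. CDDO-Me lay below all NASH vehicle libraries (-0.58 ± 0.14, adjusted p = 0.0151), and NASH vehicle against control overlapped (-0.19 ± 0.14, adjusted p = 0.259), a sign that turned with library totals alone (0.43) and on the TPM scale (0.63). Without both NASH vehicle 1 and CDDO-Me 1 the CDDO-Me call of Bst2 ended (-0.49, adjusted p = 0.0681, 0.000199 to 1 over all alternatives). Ifi27, the gene of a small membrane protein, had 70.6, 50.2, 52.7 and 47.3 CPM in CDDO-Me livers, 172, 109, 88.96 and 128 CPM in NASH vehicle livers and 91.8, 107, 74.1 and 76.6 CPM in control livers. CDDO-Me was below every library of both other groups (-1.17 ± 0.20 against NASH vehicle, adjusted p = 0.00159). The higher level in NASH vehicle against control (0.51 ± 0.19, adjusted p = 0.0359) ended without any 1 of 5 libraries (control 1, 3 or 4, NASH vehicle 1 or 4), at 0.0557 to 0.127, with 9.05e-05 to 0.706 over all alternatives. Rtp4, a chaperone of membrane receptors, had 21.2, 12.1, 15.5 and 18.2 CPM in CDDO-Me livers, 45.3, 37.5, 35.5 and 34.9 CPM in NASH vehicle livers and 21.3, 17.2, 16.5 and 18.6 CPM in control livers. CDDO-Me values overlapped control values and lay below all NASH vehicle values. It changed by -1.19 ± 0.15 with CDDO-Me (adjusted p = 0.000194) and by 1.06 ± 0.15 in NASH vehicle against control (adjusted p = 5.12e-05).

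Parp14, an enzyme that adds single ADP-ribose units to proteins, had 40.3, 26.6, 27.8 and 37.2 CPM in CDDO-Me livers, 71.8, 56.6, 58.3 and 56.2 CPM in NASH vehicle livers and 25.7, 24.7, 31.9 and 23.3 CPM in control livers. CDDO-Me values came close to the controls and overlapped them (-0.88 ± 0.14 against NASH vehicle, adjusted p = 0.00124). Ifi44 had 8.01, 3.83, 4.63 and 4.85 CPM in CDDO-Me livers, 15.03, 10.00, 9.45 and 9.704 CPM in NASH vehicle livers and 2.27, 1.06, 1.26 and 1.34 CPM in control livers. Its groups were separate (-1.05 ± 0.26 with CDDO-Me, adjusted p = 0.0166, and 2.89 ± 0.29 in NASH vehicle against control), and the CDDO-Me call ended without CDDO-Me 2 or 3 (adjusted p = 0.05798 to 0.05799, 0.000959 to 0.2904 over all alternatives). Xaf1, an antagonist of the apoptosis inhibitor XIAP, had 12.3, 5.37, 6.06 and 9.35 CPM in CDDO-Me livers, 21.1, 16.2, 15.5 and 13.8 CPM in NASH vehicle livers and 3.92, 3.18, 3.85 and 4.34 CPM in control livers. The CDDO-Me libraries fell between the other groups without overlap (-1.01 ± 0.23 against NASH vehicle, adjusted p = 0.00986). Mx2, which the tables list as a polymorphic pseudogene, had 5.45, 3.16, 3.65 and 4.27 CPM in CDDO-Me livers, 13.9, 8.74, 8.52 and 6.34 CPM in NASH vehicle livers and 5.45, 5.396, 3.996 and 3.398 CPM in control livers. NASH vehicle stood above both other groups (-1.17 ± 0.25 for CDDO-Me against it, adjusted p = 0.00692).

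The effectors that did not pass in CDDO-Me against NASH vehicle were Rsad2, Cmpk2, Ifi35 and Trim30a. Rsad2, the gene of viperin, averaged 15.2 ± 2.71 CPM in CDDO-Me livers, 24.5 ± 6.38 CPM in NASH vehicle livers and 6.39 ± 5.55 CPM in control livers (SD, n = 4 each). The change was -0.68 ± 0.42 for CDDO-Me against NASH vehicle (adjusted p = 0.304). Control 3 held 14.7 CPM of it and the other control livers 3.13 to 4.197 CPM. Without control 3 the log2 fold change of NASH vehicle over control was 2.76 instead of 1.93. The CDDO-Me change of Rsad2 then passed (-0.68, adjusted p = 0.0147, 0.0147 to 1 over all alternatives). Its neighbour Cmpk2, a mitochondrial nucleotide kinase, averaged 13.5 ± 2.65 CPM in CDDO-Me livers, 18.4 ± 3.48 CPM in NASH vehicle livers and 6.36 ± 1.64 CPM in control livers (-0.44 ± 0.19, adjusted p = 0.128). Ifi35 was at 23.9 ± 3.21 CPM in CDDO-Me livers, 29.2 ± 3.41 CPM in NASH vehicle livers and 29.04 ± 1.58 CPM in control livers (-0.29 ± 0.11, adjusted p = 0.0852). Trim30a, which in the mouse restrains Toll-like receptor signalling, was at 33.6 ± 8.41 CPM in CDDO-Me livers, 40.1 ± 4.82 CPM in NASH vehicle livers and 26.2 ± 2.01 CPM in control livers (-0.26 ± 0.14, adjusted p = 0.253). Of the Trim30a reads 65.8% lay in introns, and CDDO-Me 4 held 46.2 CPM, where the other CDDO-Me livers held 28.9 to 30.2 CPM. Trim30a was called lower on exon reads (-1.02, adjusted p = 0.00397) and without CDDO-Me 4 (-0.45, adjusted p = 0.00811), with 0.00397 to 1 over all alternatives. By TPM it was at 6.32 ± 2.55 in CDDO-Me livers, 14.6 ± 1.56 in NASH vehicle livers and 1.34 ± 0.338 in control livers. Over all alternatives its log2 fold change ran from 0.53 to 2.75 for NASH vehicle against control. It ran from 0.12 to 1.63 for CDDO-Me against control, so the size of both differences is uncertain.

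Guanylate-binding proteins (GBP) and immunity-related GTPases (IRG) gather on membranes around intracellular pathogens and break them. Of the 7 genes, 3 were higher in NASH vehicle than in control livers (Gbp2, Gbp3 and Gbp7), 1 was lower (Iigp1) and 3 did not pass. Over all tested genes 29.6% were called higher and 30.0% lower, so these counts alone set the GTPases little apart. The median of the 7 log2 fold changes was 0.31. In CDDO-Me against NASH vehicle livers 2 were lower (Gbp3 and Ifi47) and 5 did not pass, with a median of -0.37. In this comparison 7.24% of all tested genes were called lower. The 12 Oas, Ifit and Isg15 genes had 11 lower with a median of -1.09, and the 33 members other than GTPases had 27 lower with a median of -0.98. The difference between GTPases and the rest was not tested.

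Gbp3 had 13.1, 9.37, 10.5 and 9.55 CPM in CDDO-Me livers, 21.4, 17.5, 13.5 and 16.2 CPM in NASH vehicle livers and 5.42, 2.54, 3.22 and 3.17 CPM in control livers. The CDDO-Me values lay between the other groups, just under NASH vehicle 3 (-0.69 ± 0.21 against NASH vehicle, adjusted p = 0.0375, and 2.25 ± 0.22 for NASH vehicle against control, adjusted p = 2.14e-06). Its CDDO-Me call ended without any 1 of 6 libraries, NASH vehicle 1, 2 or 4 or CDDO-Me 2, 3 or 4 (0.0681 to 0.111, 0.00721 to 1 over all alternatives). Gbp2 averaged 9.01 ± 2.54 CPM in CDDO-Me livers, 12.8 ± 3.04 CPM in NASH vehicle livers and 3.798 ± 1.71 CPM in control livers (SD, n = 4 each), with -0.51 ± 0.28 for CDDO-Me against NASH vehicle (adjusted p = 0.253). Gbp7 averaged 12.9 ± 1.98 CPM in CDDO-Me livers, 15.1 ± 1.75 CPM in NASH vehicle livers and 8.998 ± 2.72 CPM in control livers (-0.23 ± 0.19, adjusted p = 0.459). In both genes the CDDO-Me and NASH vehicle values overlapped.

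Iigp1, an IRG protein that attacks the vacuole of Toxoplasma, was the second most abundant member per length in CDDO-Me and control livers. It had 199, 201, 209 and 184 CPM in CDDO-Me livers, 244, 148, 143 and 161 CPM in NASH vehicle livers and 286, 234, 254 and 236 CPM in control livers. NASH vehicle 1 stood far above the other 3 of its group, and NASH vehicle was lower than control overall (-0.54 ± 0.15, adjusted p = 0.00752), a sign that turned with library totals alone (0.08) and on the TPM scale (0.24). CDDO-Me against NASH vehicle was 0.19 ± 0.15 (adjusted p = 0.446), and without NASH vehicle 1 it was called higher (0.39, adjusted p = 0.0190, 0.01895 to 1 over all alternatives). Irgm1, which regulates other IRG proteins, averaged 35.1 ± 4.82 CPM in CDDO-Me livers, 45.5 ± 7.42 CPM in NASH vehicle livers and 52.2 ± 6.04 CPM in control livers (SD, n = 4 each). Its change was -0.37 ± 0.13 for CDDO-Me against NASH vehicle (adjusted p = 0.0638). Against control, NASH vehicle was at -0.20 ± 0.13 for Irgm1, and this sign turned with library totals alone (0.42) and on the TPM scale (0.54). Without NASH vehicle 1 it was called lower (-0.32, adjusted p = 0.0363, 0.00324 to 1 over all alternatives). Igtp, also called IRGM3, had 22.8, 14.4, 22.5 and 12.2 CPM in CDDO-Me livers, 24.1, 19.8, 17.7 and 25.3 CPM in NASH vehicle livers and 23.9, 21.5, 22.9 and 17.9 CPM in control livers. All 3 groups overlapped (-0.27 ± 0.19 with CDDO-Me, adjusted p = 0.372). Ifi47, an IRG protein of the same family, had 23.5, 17.8, 20.9 and 19.04 CPM in CDDO-Me livers, 36.8, 28.1, 24.1 and 27.8 CPM in NASH vehicle livers and 27.96, 21.6, 24.3 and 20.03 CPM in control livers. CDDO-Me values were all below NASH vehicle values (-0.52 ± 0.14, adjusted p = 0.0218). Both Igtp and Ifi47 overlap another gene on their strand, with 13.3% and 11.5% of reads unique, so their levels are uncertain. The call of Ifi47 ended on unique reads (-0.49, adjusted p = 0.250) and without NASH vehicle 1 or CDDO-Me 2 or 3 (0.05103 to 0.0783), with 0.00335 to 1 over all alternatives.

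**Figure D3:**
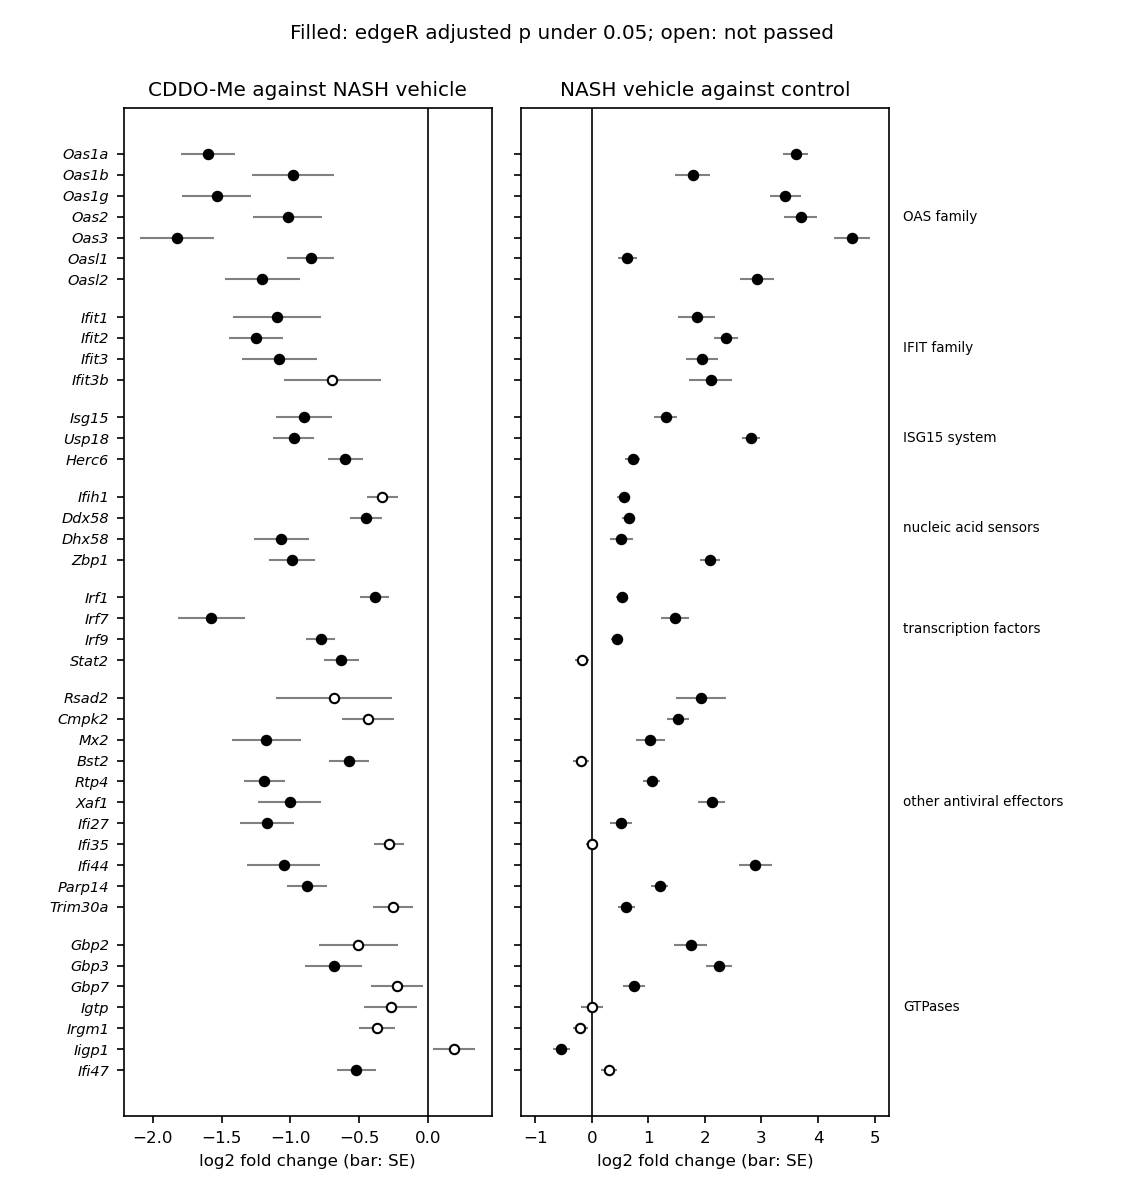
Log2 fold change with SE of each member for CDDO-Me against NASH vehicle (left) and NASH vehicle against control (right), with filled points where edgeR's adjusted p was under 0.05; the horizontal scales differ. On the left 39 of the 40 points lie below 0 and 29 are filled, and on the right the OAS genes reach furthest, up to 4.60 for Oas3.

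Levels can be compared between genes only per length, on the TPM scale. Bst2, Iigp1 and Ifi27 were the 3 highest members in all 3 groups. Iigp1 had 164 ± 15.8 TPM in CDDO-Me livers, 166 ± 33.3 TPM in NASH vehicle livers and 139 ± 15.01 TPM in control livers (mean ± SD, n = 4 each). Ifi27 had 96.6 ± 24.2 TPM in CDDO-Me livers, 252 ± 56.1 TPM in NASH vehicle livers and 102 ± 12.4 TPM in control livers. In NASH vehicle livers Ifi27 came before Iigp1, and in the other groups after it. The lowest level in CDDO-Me and control livers was that of Oas3, at 1.503 ± 0.645 TPM and 0.143 ± 0.0648 TPM, and in NASH vehicle livers that of Oas1b (4.72 ± 1.55 TPM).

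CDDO-Me livers were also compared with control livers, to show how far the treated diseased livers stood from healthy ones. Of the 40 members 18 were higher in CDDO-Me livers, 7 were lower and 15 did not pass, where 26.2% of tested genes were called higher and 23.6% lower. The split was 26 higher and 2 lower with library totals alone and 28 higher and 0 lower on the TPM scale. Over all 16456 tested genes, library totals alone called 8678 higher and 1125 lower, and the TPM scale 8943 higher and 819 lower. The report's fit called 4317 higher and 3881 lower. The OAS family had 6 of 7 higher (median log2 fold change 1.89), the IFIT family 3 of 4, and the transcription factors 0 of 4 higher and 2 lower. Oas3 and Oas2 differed most, at 2.78 ± 0.32 (adjusted p = 1.07e-05) and 2.67 ± 0.29 (adjusted p = 7.36e-06), and Oas1a by 2.00 ± 0.22. The 7 lower members were Dhx58, Irf9, Stat2, Bst2, Ifi27, Ifi35 and Irgm1, of which Stat2 (-0.80 ± 0.13, adjusted p = 0.000184) and Bst2 (-0.77 ± 0.14, adjusted p = 0.000606) were the furthest down. With library totals alone Irf9 and Ifi35 turned to 0.15 and 0.20, and on the TPM scale Irf9, Stat2 and Ifi35 turned to 0.24, 0.0031 and 0.28. Of the 25 calls, 18 held without any 1 library; those of Oas1b, Ifit3, Rsad2, Gbp7, Dhx58, Irf9 and Ifi35 ended without at least 1, at adjusted p of 0.0501 to 0.159. Rsad2 was at 1.24 ± 0.44 over control with all libraries and at 2.07 without control 3.

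The interferons themselves were at the edge of detection. None of the 19 interferon genes listed had enough reads to be tested. Ifnb1, all 11 interferon alpha genes, Ifnab, Ifne, Ifnl2 and Ifnl3 had 0 reads in all 12 libraries. A count of 0 allows up to 3 reads per library (counting error only), if each read is a separate count. The bound is higher if a read pair counted as 2 reads, and every nonzero count below is even. Ifng, the gene of interferon gamma, had 2, 2, 0 and 2 reads in CDDO-Me livers, 0, 0, 4 and 2 reads in NASH vehicle livers and 0, 0, 2 and 0 reads in control livers. Ifnk had 2, 4, 0 and 0 reads in CDDO-Me livers, 2, 0, 0 and 0 reads in NASH vehicle livers and 0 reads in every control liver. Ifnz had 0, 0, 0 and 4 reads in CDDO-Me livers, 6, 0, 0 and 0 reads in NASH vehicle livers and 0 reads in every control liver. These counts allow no comparison between the groups.

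Receptors and signal proteins of the pathway were well detected. Of 11 such genes, 5 were lower and 0 higher in CDDO-Me than in NASH vehicle livers (median log2 fold change -0.33), and 8 were higher and 1 lower in NASH vehicle than in control livers (median 0.40). Ifngr1, a chain of the interferon gamma receptor, averaged 34.4 ± 4.98 CPM in CDDO-Me livers, 55.3 ± 10.6 CPM in NASH vehicle livers and 16.9 ± 0.849 CPM in control livers (SD, n = 4 each) and was lower with CDDO-Me (-0.68 ± 0.13, adjusted p = 0.00408). The chains of the type I receptor did not pass with CDDO-Me, at -0.23 ± 0.08 for Ifnar1 (adjusted p = 0.0683) and 0.03 ± 0.11 for Ifnar2 (adjusted p = 0.895).

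Of 21 genes of upstream sensing 6 were lower in CDDO-Me than in NASH vehicle livers and 0 higher (median -0.69), and 16 were higher and 2 lower in NASH vehicle than in control livers (median 2.25). Tlr7, an endosomal receptor of single-stranded RNA, averaged 2.32 ± 0.406 CPM in CDDO-Me livers, 7.95 ± 1.64 CPM in NASH vehicle livers and 0.482 ± 0.0631 CPM in control livers (-1.77 ± 0.21 with CDDO-Me, adjusted p = 9.66e-05). Brakes of the signal had 1 of 9 lower with CDDO-Me, the phosphatase gene Ptpn6 (-0.65 ± 0.14, adjusted p = 0.00754). Partners of ISG15 and OAS had Herc3 higher (0.56 ± 0.14, adjusted p = 0.0156) and Uba7, the enzyme that activates ISG15, lower (-0.54 ± 0.16, adjusted p = 0.03900), of 5.

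Other genes that interferons induce, listed from knowledge of the pathway, followed with 19 of 30 lower and 0 higher in CDDO-Me than in NASH vehicle livers (median -0.68), and with 23 higher and 3 lower in NASH vehicle than in control livers (median 1.35). Ly6e, a surface protein that blocks coronavirus entry, averaged 429.6 ± 36.9 CPM in CDDO-Me livers, 766 ± 77.2 CPM in NASH vehicle livers and 203 ± 28.6 CPM in control livers (-0.83 ± 0.13, adjusted p = 0.000759). Of 13 further GTPases tested 5 were lower and 0 higher with CDDO-Me (median -0.64), among them Gbp8 (-0.77 ± 0.16, adjusted p = 0.00588). In NASH vehicle against control livers 9 of these 13 were higher and 2 lower, with a median of 1.60, against 0.31 for the 7 member GTPases. Interferon gamma targets of antigen presentation had 9 of 15 lower and 0 higher with CDDO-Me (median -0.65), and 11 higher in NASH vehicle than in control livers (median 0.85). Tap1, which pumps peptides to class I molecules, averaged 22.2 ± 4.72 CPM in CDDO-Me livers, 43.6 ± 3.897 CPM in NASH vehicle livers and 23.03 ± 4.13 CPM in control livers (-0.97 ± 0.15, adjusted p = 0.0009199).

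Markers of macrophages and of T and NK cells were also in part lower in CDDO-Me than in NASH vehicle livers, while those of other immune cells mostly did not pass. In whole liver fewer cells of a type and less RNA per cell cannot be told apart. Of 10 macrophage markers 7 were lower and 0 higher in CDDO-Me than in NASH vehicle livers (median log2 fold change -1.16), and all 10 were higher in NASH vehicle than in control livers (median 3.52). Their summed level was 837 to 1542 CPM in CDDO-Me livers, 1559 to 2949 CPM in NASH vehicle livers and 120 to 207 CPM in control livers, and none was at 0 in any group. Plasmacytoid dendritic cells, a main source of type I interferon, had markers summing to 27.2 to 41.1 CPM in CDDO-Me livers, 35.9 to 42.0 CPM in NASH vehicle livers and 21.1 to 26.6 CPM in control livers, with 0 of 6 called with CDDO-Me. T and NK cell markers, from cells that make interferon gamma, summed to 6.07 to 8.78 CPM in CDDO-Me livers, 8.199 to 21.1 CPM in NASH vehicle livers and 2.54 to 5.68 CPM in control livers. Of these 11 markers, all at low levels, 4 were lower with CDDO-Me and 0 higher, and 3 had a log2 fold change above 0. Every CDDO-Me library lay below every NASH vehicle library for 2 of them, and the summed levels of these groups overlapped. Of 6 Kupffer cell markers 0 were called with CDDO-Me (median 0.28), as were 0 of 6 of conventional dendritic cells (median -0.15) and 0 of 4 of B cells (median 0.83, all 4 above 0). Neutrophil markers had 1 of 5 lower with CDDO-Me (median -0.32). In NASH vehicle against control livers, 29.6% of all tested genes were called higher and 30.0% lower. There Kupffer cell markers had 3 higher and 2 lower of 6, and conventional dendritic cells 5 of 6 higher. B cells had 0 of 4 called and neutrophils 5 of 5 higher. Plasmacytoid dendritic cells had 4 of 6 higher (median 1.76), and T and NK cells 9 of 11 (median 2.32). Sinusoidal endothelium markers went the other way from the members: 5 of 6 were higher in CDDO-Me than in NASH vehicle livers (median 1.15) and 4 of 6 were lower in NASH vehicle than in control livers (median -1.45). Their summed level was 157 to 232 CPM in CDDO-Me livers, 72.6 to 136 CPM in NASH vehicle livers and 193 to 212 CPM in control livers. Hepatocyte markers had 1 of 10 higher with CDDO-Me and all 10 lower in NASH vehicle than in control livers. The part of these cells in the interferon-induced genes was not tested.

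Within the NASH vehicle group the macrophage markers and the interferon-induced genes did not follow the same order. NASH vehicle 1 had the highest summed level of the 12 Oas, Ifit and Isg15 genes, at 242 CPM against 187 to 217 CPM in the other 3, and the lowest macrophage marker sum, at 1559 CPM against 2493 to 2949 CPM. In the CDDO-Me group CDDO-Me 1 was highest for the 12 genes (130 CPM against 72.5 to 90.9 CPM), and CDDO-Me 4 was highest for macrophage markers (1542 CPM against 837 to 1165 CPM). The 12 genes summed to 92.6 ± 26.0 CPM in CDDO-Me livers, 210 ± 25.3 CPM in NASH vehicle livers and 45.2 ± 9.51 CPM in control livers (SD, n = 4 each). The 7 GTPases summed to 304 ± 24.5 CPM in CDDO-Me livers, 316 ± 64.9 CPM in NASH vehicle livers and 366 ± 39.3 CPM in control livers, and most of that sum was Iigp1.

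**Figure D4:**
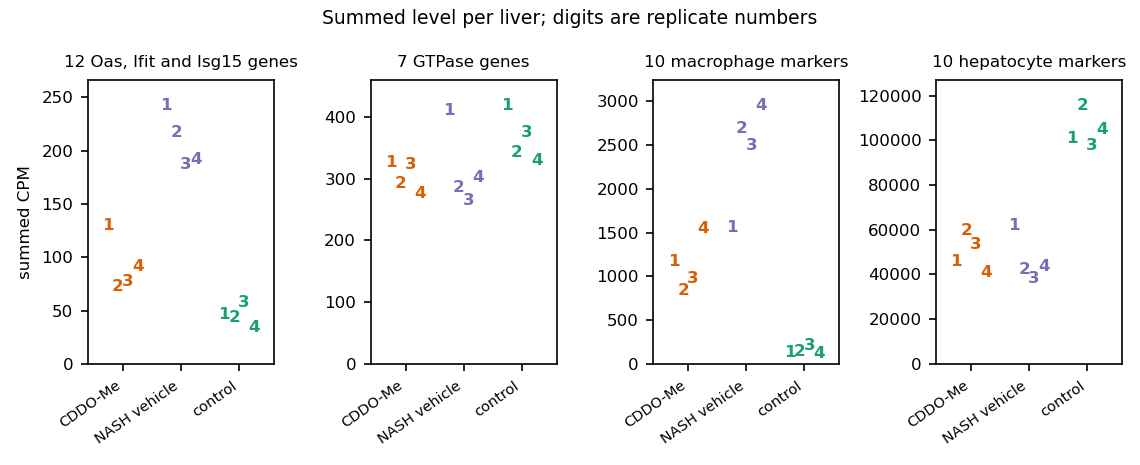
Summed CPM per library of the 12 Oas, Ifit and Isg15 genes, the 7 GTPases, 10 macrophage markers and 10 hepatocyte markers, with the digit giving the replicate number. The 12 genes separate the 3 groups with CDDO-Me in the middle, the GTPase sums overlap, and NASH vehicle 1 is the highest NASH vehicle library for the 12 genes and the lowest for macrophage markers.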

How the data were processed

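RNA-seq counts per gene and TPM values were deposited by the authors for 12 mouse liver libraries; poly(A) RNA was sequenced in pairs, per the labels' protocols. The genome build was GRCm38, per the submitters' processing notes. Aligner, counter and strand setting are not given in the sources, nor is whether a read pair counted as 1 or 2 reads. The deposited counts, which give total, unique and exon reads per gene, were used as they stand, and the deposited TPM values (scaled per length) served only to compare levels between genes and as an alternative. The fraction of a gene's reads that were unique or in introns was also deposited by the authors.

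Genes were kept by filterByExpr (minimum count 10, minimum total 15), scaled by TMM and tested with edgeR 4.0.16 (R 4.3.3), using the robust quasi-likelihood fit over all 12 libraries and two-sided tests with Benjamini-Hochberg adjustment at 0.05. The SE printed is the log2 fold change divided by the root of the F statistic, not an SE from the model. On data simulated for CDDO-Me against NASH vehicle with 16456 genes, 74% of genes raised 2-fold and 22% of those raised 1.5-fold were recovered. Of genes lowered to 0.5 of their level 68% were recovered, so small changes may be missed. The changed genes were drawn only from those above a minimum mean read count. Alternatives used DESeq2 1.42.0 and limma 3.58.1 (limma-trend on TPM with a pseudocount of 1, limma-voom on read counts). Others used a 1.5-fold minimum, other filters, scalings and read types, a replicate block, and the leaving out of libraries.

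The members and all lists were chosen with earlier results of these data known. Values in every library are given for 32 members: the 2 of each role group with the highest mean TPM, those that passed in CDDO-Me against NASH vehicle and those with the largest change in their group. The other 8 are given by means. Of each pathway list at most the 4 genes with the lowest p were open to naming, beside the interferon receptor chains. Intervals for counts of 0 cover counting error only. A further gene of the pathway is not reported here.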

Additional observations from a re-analysis of the deposited data

Results flagged for a closer look

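In 14 of 120 groups of 4 libraries 1 library lay far from the other 3 by Dixon's criterion, which chance meets in about 1 group in 20. In 13 of the 14 that library was the highest.

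CDDO-Me 1 stood high for Oasl1 (11.7 CPM), Ifit3 (22.8 CPM) and Cmpk2 (17.5 CPM), and CDDO-Me 4 for Trim30a (46.2 CPM). NASH vehicle 1 stood high for Oas1g (14.1 CPM), Oasl1 (24.3 CPM), Irf7 (97.3 CPM), Ifi44 (15.0 CPM) and Parp14 (71.8 CPM). Control 3 stood high for Oasl2 (7.33 CPM), Ifit1 (7.36 CPM) and Rsad2 (14.7 CPM). Control 2 stood high for Oas1a (3.14 CPM) and low for Ddx58 (20.1 CPM).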

How the results depend on the processing

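For CDDO-Me against NASH vehicle no member changed sign under any alternative run. The 29 lower members became 7 with a 1.5-fold minimum and 20 to 31 when 1 library was left out. Under the other settings they numbered 26 to 33. Over all tested genes, the 1191 lower became 117 with a 1.5-fold minimum and 2462 on the TPM scale. They numbered 617 to 1498 when 1 library was left out. The 0 higher members became 1 without NASH vehicle 1 and CDDO-Me 1 (chosen after seeing the data). That count was 0 to 1 when 1 library was left out. For NASH vehicle against control, the 33 higher members became 23 with a 1.5-fold minimum and 39 with library totals alone and on the TPM scale. They were 31 to 33 when 1 library was left out and 31 to 34 under the other settings. Over all tested genes, the 4874 higher became 3207 with a 1.5-fold minimum, 9908 with library totals alone and 11005 on the TPM scale. The 1 lower member became 0 with library totals alone, on the TPM scale and with a 1.5-fold minimum. That count was 2 with the replicate block, 3 without NASH vehicle 1 and CDDO-Me 1, and 1 to 2 when 1 library was left out. For CDDO-Me against control, the 18 higher members became 14 with a 1.5-fold minimum, 26 with library totals alone and 28 on the TPM scale. They were 14 to 20 when 1 library was left out. Over all tested genes, the 4317 higher became 2469 with a 1.5-fold minimum, 8678 with library totals alone and 8943 on the TPM scale. The 7 lower members became 2 with library totals alone, 0 on the TPM scale and 0 with a 1.5-fold minimum. That count was 4 to 7 when 1 library was left out.

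Library totals alone and the TPM scale moved the median over all genes (log2) to 0.62 and 0.51 in NASH vehicle against control and to 0.51 and 0.37 in CDDO-Me against control. In NASH vehicle against control both turned the sign of 4 members: Stat2 (0.46 and 0.83), Bst2 (0.43 and 0.63), Irgm1 (0.42 and 0.54) and Iigp1 (0.0753 and 0.24). Stat2 also turned on exon reads (0.08), and Ifi35 and Igtp, both at 0.01 in the report's fit, turned under other settings, down to -0.03 and -0.07. In CDDO-Me against control, library totals turned 9 members and the TPM scale 10. Irf9 turned to 0.15 and 0.24, Ifi35 to 0.20 and 0.28, Irf7 to 0.38 and 0.51, Rtp4 to 0.36 and 0.55 and Ifi47 to 0.26 and 0.37. Oasl1, Mx2, Igtp and Iigp1, which had not passed, turned under both without passing, and Stat2 on the TPM scale (0.0031). Rtp4 also turned on exon reads (0.06), and Irf7 without control 1 (0.15) or CDDO-Me 4 (0.01). Beyond the shifts of the median the cause was not tested.

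The replicate block gave 30 lower and 0 higher members for CDDO-Me against NASH vehicle, 34 higher and 2 lower for NASH vehicle against control, and 19 higher and 6 lower for CDDO-Me against control. Over all tested genes it called, in the same order, 927 lower and 1250 higher, 4749 higher and 4723 lower, and 4085 higher and 3637 lower. No sign of pairing by replicate number was seen: correlations of same-numbered libraries ran from -0.22 to 0.19, and 0 of 12 libraries correlated best with their own number. The labels do not say whether the numbers pair samples.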
